A study of Mus musculus with 6 samples.

Results

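The mitochondrial genome of the mouse holds 37 genes, and all 37 were found among the 53379 Ensembl genes listed for each library of this series. They are the genes of chromosome M in GENCODE release M21 (GRCm38), matched by Ensembl identifier. By class they are 13 mRNAs, 2 ribosomal RNAs (rRNAs) and 22 transfer RNAs (tRNAs). The plus strand of the reference holds 28 of them (12 mRNAs, both rRNAs and 14 tRNAs), and the minus strand holds 9 (1 mRNA, mt-Nd6, and 8 tRNAs).

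RNA of small extracellular vesicles (sEV), membrane-bound particles that cells release, was sequenced from cultured embryonic cortical neurons of wild-type mice. NorEV are the vesicles of control neurons, which the series calls normoxic, and HypEV those of neurons given OGD/R, which it calls hypoxic. The labels do not spell out OGD/R or say how the vesicles were isolated, and each group has 3 libraries. Nothing in the labels says that the libraries of a group came from separate cultures, so the p-values rest on differences among these libraries alone, which may be technical.

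Mitochondrial DNA is a small circle that is copied into RNA on both strands, as long transcripts that run through many genes. The transcript read off one strand carries the rRNAs, most of the mRNAs and most of the tRNAs, and the other carries mt-Nd6 and the remaining tRNAs. In most places tRNAs sit between the mRNAs and rRNAs, and their excision releases the neighbours. The mRNAs all code for subunits of the respiratory chain and the ATP synthase, and in most tissues the rRNAs and the mRNAs of the first strand are among the most abundant RNAs of the cell.

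The deposited values are FPKM, which scale the fragments counted on a gene to its length in kilobases and to all fragments counted on genes. Dividing by what 1 read is worth gave a whole number for 96.0% of the nonzero values, and so totals of 1092724 to 1494499 gene reads for NorEV libraries and 1320916 to 2141611 for those of HypEV. For all 37 genes the reads came out whole. The libraries differed in how many reads the annotated gene Gm23935 and others more than 90% alike (6 genes in all) took: 4.34%, 0.561% and 0.303% in NorEV 1, 2 and 3, against 49.6%, 1.97% and 24.5% in HypEV 1, 2 and 3. FPKM divide by all reads on genes, so these reads lower the values of every other gene. Neuron markers had a median of 5.25 to 10.1 FPKM in single libraries, beside medians for astrocyte (3.93 to 8.94), microglial (3.64 to 9.22), oligodendrocyte lineage (3.68 to 7.44), vascular and fibroblast (5.73 to 12.8) and erythroid markers (3.03 to 11.4). No marker of these 6 lists was at 0 in all libraries, nor were 47963 of all 53379 genes. The median of 21865 protein-coding genes was 3.53 to 8.22 FPKM in single libraries. The marker levels alone therefore do not show which cell types the RNA came from. Tested between the groups were 22 neuron, 10 astrocyte, 10 microglial, 10 oligodendrocyte lineage, 10 vascular and fibroblast and 7 erythroid markers. None passed (limma). At an unadjusted p under 0.05 (limma), 0 were higher and 4 lower in HypEV, where 0.635% and 6.13% of all genes were. On reads, limma-voom called 1, a vascular or fibroblast marker, lower, and 214 of all 42345 genes it tested. The part of other cell types in the results on mitochondrial genes was not tested.

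The counting separated the strands. A single-exon gene that shares its whole span with exons of a gene of the same strand got no reads in 539 of 542 cases, whereas only 63 of 322 such genes got none where the covering exons lay on the other strand. Whether a read counted on a gene has the sequence of that gene's RNA or of its antisense strand is not given in the sources used here and was not tested. Abundant RNAs of known strand did not settle it: Rn7sk, the 7SK RNA, ranged from 2.29 to 875 FPKM, Malat1, a nuclear RNA of neurons and other cells, from 13.9 to 45.3, and 2 of 10 such RNAs (Rmrp and Rpph1) were at 0 in all libraries. Plus and minus below mean the strand of the gene to which the authors' counting gave the reads. Were the reads antisense to these genes, those on mt-Nd6 and the minus-strand tRNA genes would come from RNA of plus-strand sequence. Those on the rRNA and other plus-strand genes would then come from RNA of minus-strand sequence. High values of mt-Nd6 and low ones of the rRNA genes below are therefore not levels of RNAs of known strand.

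Of the 11385 mitochondrial reads of the 6 libraries, 9404 lay on mt-Nd6 and the tRNA genes of the minus strand; in NorEV 2 alone most lay on the plus strand. The sequences are shown because these 2 kinds of gene hold most of the reads; they are GENCODE M21 transcripts on GRCm38, written 5′ to 3′ in the sense of the gene. In the tRNAs the capitals mark the anticodon, found as the known triplet closed by a stem of 5 base pairs. The first 4 lines are the tRNAs for glutamine (mt-Tq), proline (mt-Tp), glutamate (mt-Te) and alanine (mt-Ta), which had the most reads. The next is that for asparagine (mt-Tn), also of the minus strand and listed at 0 in all libraries.
mt-Tq: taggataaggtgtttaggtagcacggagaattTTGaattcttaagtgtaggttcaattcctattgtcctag
mt-Tp: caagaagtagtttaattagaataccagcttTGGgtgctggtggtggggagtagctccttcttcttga
mt-Te: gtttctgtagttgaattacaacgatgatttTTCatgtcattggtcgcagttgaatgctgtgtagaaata
mt-Ta: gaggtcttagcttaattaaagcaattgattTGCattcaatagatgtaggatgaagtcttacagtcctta
mt-Tn: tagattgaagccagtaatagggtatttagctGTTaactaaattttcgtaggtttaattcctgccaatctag
The mt-Nd6 gene, which codes for a membrane subunit of complex I, is 519 bases long. Its first 120 bases stand beside those of its copy in the nuclear genome, Gm11408, with the bases that differ in capitals, because reads of one can be told from reads of the other only where they cover such a base.
mt-Nd6: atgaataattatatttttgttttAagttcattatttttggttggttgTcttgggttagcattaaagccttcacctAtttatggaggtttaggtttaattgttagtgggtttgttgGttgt
Gm11408: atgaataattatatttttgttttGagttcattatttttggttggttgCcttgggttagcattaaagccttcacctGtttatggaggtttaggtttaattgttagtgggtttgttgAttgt
Over the whole 519 bases 33 differ, and the longest identical run is 39 bases.

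The strands differ in base composition. mt-Nd6 had 28.1% G, 5.97% C and 43.7% T, whereas the 12 mRNAs of the plus strand had 5.88 to 16.1% G and 22.1 to 29.97% C. The 8 tRNAs of the minus strand had 17.9 to 29.9% G and the 14 of the plus strand 7.14 to 21.3%. The opposite-strand neighbours mt-Nd5 and mt-Nd6 overlap by 14 bases at their 3′ ends, written in capitals here.
mt-Nd5 3′ end: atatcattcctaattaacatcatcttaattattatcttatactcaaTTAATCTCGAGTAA
mt-Nd6 3′ end: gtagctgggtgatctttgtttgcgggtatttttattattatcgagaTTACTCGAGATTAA
On its other side mt-Nd6 meets mt-Te with no base between them, as the junction shows with the first codon of mt-Nd6 in capitals.
mt-Te to mt-Nd6: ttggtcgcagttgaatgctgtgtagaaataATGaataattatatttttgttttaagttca

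mt-Nd6 (ENSMUSG00000064368, chromosome M, 13552 to 14070) was the mitochondrial gene with the most reads in 5 of the 6 libraries. It had 700, 46 and 102 reads in NorEV 1, 2 and 3, against 3034, 952 and 3241 in HypEV 1, 2 and 3. Per length these were 1234, 62.7 and 132 FPKM in NorEV (476 ± 657, SD, n = 3) and 2730, 1269 and 4728 FPKM in HypEV (2909 ± 1736). The groups did not overlap, but NorEV 1 and HypEV 2 lay side by side. As a share of reads on genes, mt-Nd6 had 0.0641% in NorEV 1 (95% Wilson interval 0.0595 to 0.0690) and 0.0659% in HypEV 2 (0.0618 to 0.0702), which counting error alone does not separate. NorEV 2 and NorEV 3 were far lower, at 0.00325% (0.00244 to 0.00434) and 0.00683% (0.00562 to 0.00828), and HypEV 1 and 3 higher, at 0.142% (0.137 to 0.147) and 0.245% (0.237 to 0.254). These intervals, like all below, cover counting error only.

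The rank of mt-Nd6 among the genes of a library differed as widely. By FPKM it was the 7th of all 53379 genes in HypEV 1 and HypEV 3, the 10th in HypEV 2 and the 9th in NorEV 1, but the 805th in NorEV 2 and the 173rd in NorEV 3. Among 21865 protein-coding genes it was the 3rd in those first 4 libraries. mt-Nd5, the complex I gene that overlaps its end on the plus strand, had 72.4, 6.74 and 51.2 times less FPKM in NorEV 1, 2 and 3, against 155, 45.2 and 122 times less in HypEV 1, 2 and 3.

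The rRNA genes were far below mt-Nd6. mt-Rnr1 (chromosome M, 70 to 1024), the small rRNA of the mitochondrial ribosome, measured 27.8, 9.63 and 12.6 FPKM in NorEV against 21.5, 44.9 and 41.2 in HypEV. mt-Rnr2 (1094 to 2675), the large rRNA, measured 56.1, 31.8 and 4.65 FPKM in NorEV against 94.5, 27.1 and 179 in HypEV. Both pairs of groups overlapped. Per length mt-Nd6 was 1.97 (NorEV 2) to 46.8 (HypEV 2) times as high as mt-Rnr2. The ratio of mt-Rnr2 to mt-Rnr1, which lie on the same primary transcript, had no common value either, from 0.369 in NorEV 3 to 4.39 in HypEV 1. NorEV 3 rested on 11 and 18 reads.

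Of the 12 plus-strand mRNAs, 8 had a read in any library and 4 (mt-Atp8, mt-Nd3, mt-Co3 and mt-Nd4l) were listed at 0 in all 6. mt-Nd5 (11742 to 13565) had the most reads, with 17.1, 9.31 and 2.57 FPKM in NorEV against 17.7, 28.1 and 38.6 in HypEV. The groups of mt-Nd5 did not overlap, although NorEV 1 and HypEV 1 were nearly level. mt-Cytb, the mitochondrial subunit of complex III (14145 to 15288), measured 26.4, 6.18 and 3.51 FPKM in NorEV against 22.4, 18.1 and 23.8 in HypEV, with NorEV 1 above all of HypEV. mt-Co1, the catalytic subunit of cytochrome c oxidase (5328 to 6872), measured 7.70, 11.4 and 3.03 FPKM in NorEV against 35.7, 19.7 and 4.41 in HypEV, and HypEV 3, the library with most mt-Nd6, was among the lower ones. By their means over the 6 libraries the remaining complex I genes were lower. mt-Nd1 gave 3.83, 7.39 and 2.10 FPKM in NorEV against 5.86, 15.2 and 10.3 in HypEV, mt-Nd2 gave 2.64, 5.45 and 1.29 against 2.70, 7.33 and 5.11, and mt-Nd4 gave 0, 2.57 and 0.971 against 3.05, 4.52 and 6.59. Of these, mt-Nd4 alone had groups that did not overlap. mt-Co2 had 3 reads, all in NorEV 2, and mt-Atp6, a subunit of the ATP synthase, had 1 read, in NorEV 3. Over all 12, the median was 0, 2.84 and 0.977 FPKM in NorEV against 1.35, 2.26 and 2.21 in HypEV, below the median of all genes in each library (1.79 to 5.73).

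**Figure D1:**
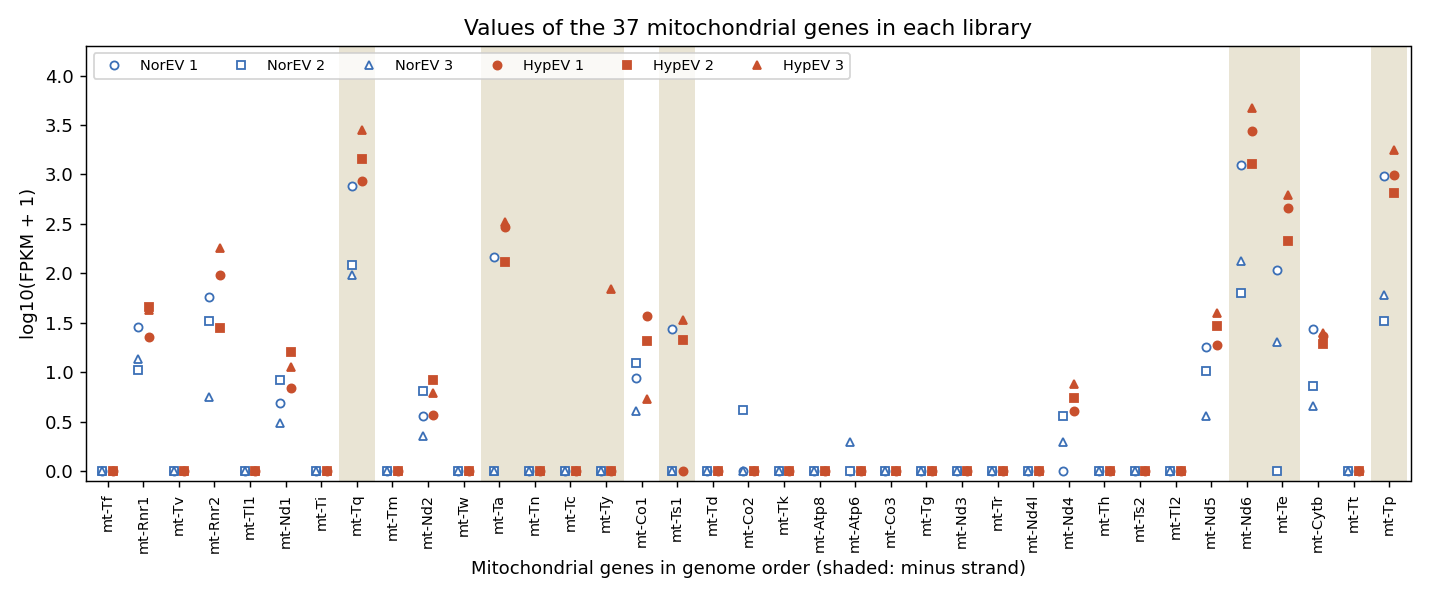
Values of the 37 mitochondrial genes, as log10(FPKM + 1) on the vertical axis and in genome order on the horizontal axis; each point is 1 library (blue open symbols NorEV, red filled symbols HypEV) and shading marks the minus strand. The shaded genes mt-Tq, mt-Nd6 and mt-Tp stand highest, whereas each of the 14 plus-strand tRNA genes lies at 0.

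The tRNA genes were split by strand. None of the 14 on the plus strand had a read in any library, whereas 6 of the 8 on the minus strand did. mt-Tq (3772 to 3842) measured 760.5, 119.6 and 94.2 FPKM in NorEV against 848, 1432 and 2836 in HypEV, and its groups did not overlap. mt-Tp (15356 to 15422) measured 956, 31.7 and 59.9 FPKM in NorEV against 983, 650.4 and 1785 in HypEV, with NorEV 1 above HypEV 2. mt-Te (14071 to 14139) measured 106, 0 and 19.4 FPKM in NorEV against 453, 211 and 625 in HypEV, without overlap. mt-Ta (5018 to 5086) measured 146, 0 and 0 FPKM in NorEV against 291, 130.3 and 329 in HypEV, with NorEV 1 above HypEV 2. In these 4 genes NorEV 1 was the highest of the NorEV libraries and HypEV 3 the highest of HypEV. One read on a gene of 69 bases is worth 6.77 to 13.3 FPKM, so that the 2 remaining genes rest on few reads: mt-Ts1, a serine tRNA, had 2 reads in NorEV 1, 2 in HypEV 2 and 3 in HypEV 3, and mt-Ty, the tyrosine tRNA, had 6 reads in HypEV 3 alone.

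The tRNAs with reads also differed in position from those without. All 6 with reads lie on the minus strand and all 14 of the plus strand had none. Position and strand can therefore be told apart only through mt-Tn and mt-Tc, the minus-strand tRNAs without reads. Each of the 6 with reads had at least 1175 bases free of any annotated gene of its own strand on one side. Of the 16 without reads, 14 lie between 2 measured neighbours, and the wider of their gaps to a gene of the same strand was 0 to 311 bases. Among them are mt-Tn and mt-Tc (the cysteine tRNA), the minus-strand tRNAs at 0, which stand in a row of 4 tRNA genes with a widest gap of 32 bases. Its outer members, mt-Ta and mt-Ty, had reads. mt-Tn also has a nuclear match, in Cep295, that is 91.5% alike over all its 71 bases, whereas mt-Tc has no match over 90%. The other two without reads, mt-Tf and mt-Tt, border the gene-free control region on one side, and that gap was not measured. As given above, single-exon genes wholly covered by exons of a same-strand gene got no reads in 539 of 542 cases. Where the covering exons lay on the other strand, 63 of 322 got none. How the counting treated a read that ran from 1 gene into its neighbour is not given in the sources used here. Its part in the zeros of the tRNAs was not tested.

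The plus-strand mRNAs with near-identical copies of nearly their whole length in the nuclear genome had few or no reads. Against the annotated transcripts of GENCODE M21, 5 plus-strand mRNAs (mt-Co2, mt-Atp6, mt-Co3, mt-Nd3 and mt-Nd4l) had a nuclear pseudogene over 99% alike over more than 95% of their length, all on chromosome 1. Together these 5 genes had 4 reads over the 6 libraries. The other 7 had 824 reads together, 0 (mt-Atp8) to 301 (mt-Nd5) each. mt-Atp8 had an annotated nuclear match over only 43 bases and overlaps mt-Atp6 by 43 bases on the same strand. On chromosome M it lies between mt-Co2 and mt-Atp6. Their copies on chromosome 1 lie close together, Gm28661 at 24614885 to 24615565 and Gm10925 at 24613974 to 24614651. Whether the stretch between these copies holds mt-Atp8 was not searched. Among those of the 7 with reads, mt-Nd4 shares 876 bases, 63.6% of its length, with a nuclear pseudogene, Gm28439, without a difference. mt-Co1 has a stretch of 483 bases that is 99.8% alike in the pseudogene Gm29216 on chromosome 1. It is also 97.6% alike to Gm13340 on chromosome 2 over all its 1545 bases. Reads that fit both copies cannot be assigned, so the values of these genes are uncertain. Copies in the nuclear genome that are not annotated were not searched.

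The nuclear copy of mt-Nd6 was read as well. Gm11408, a processed pseudogene on chromosome 4 (80003396 to 80003914, minus strand), is 93.6% identical over all 519 bases. It had 125, 36 and 36 reads in NorEV 1, 2 and 3, against 182, 81 and 170 in HypEV 1, 2 and 3. These are 17.9%, 78.3% and 35.3% of the mt-Nd6 reads in NorEV against 5.999%, 8.51% and 5.25% in HypEV. The same nuclear insertion holds copies of the plus-strand neighbours, Gm11407 (of mt-Nd5, 92.3% identical) and Gm11410 (of mt-Cytb, 92.9% identical). Gm11407 had 0 to 9 reads per library and Gm11410 had none. The pseudogenes thus showed the same order of strands as the mitochondrial genes, and whether their reads came from mitochondrial RNA was not tested.

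By class and strand, most of the mitochondrial reads fell on the minus strand in 5 libraries. Its genes held 79.96% (77.5 to 82.3), 26.5% (21.2 to 32.6) and 67.8% (60.6 to 74.2) of them in NorEV 1, 2 and 3, against 84.4% (83.2 to 85.4), 79.3% (77.2 to 81.3) and 86.3% (85.3 to 87.3) in HypEV 1, 2 and 3. NorEV 1 stood between HypEV 2 and HypEV 1. The group means were 58.1% ± 28.0 and 83.3% ± 3.63 (SD, n = 3). The 25.2 points between them came to 9.44 without NorEV 2, the library with the lowest share. Apart from mt-Nd6, the minus strand held 41.3%, 8.15% and 24% of the remaining reads in NorEV against 37.5%, 44.0% and 46.6% in HypEV. mt-Nd6 took 88.9%, 35.1% and 78.5% of the reads on mRNAs in NorEV against 91.9%, 83.4% and 95.02% in HypEV, a difference of means of 22.6 points, or 6.40 without NorEV 2.

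The rRNAs took a smaller part of the mitochondrial reads in HypEV. Their share was 11.9% (95% Wilson interval 10.05 to 13.9), 36.5% (30.6 to 42.9) and 16.4% (11.7 to 22.5) in NorEV against 8.99% (8.15 to 9.92), 8.21% (6.93 to 9.70) and 9.78% (8.93 to 10.7) in HypEV. The 3 HypEV libraries lay within 2 points of each other and below all of NorEV, although the intervals of NorEV 1 and HypEV 3 overlap. With mt-Nd6 left out of the total, the rRNA shares of the groups overlapped, at 34.7%, 45.7% and 38.7% in NorEV against 35.9%, 22.2% and 38.2% in HypEV. The tRNAs took 6.52 to 14.1% of the mitochondrial reads in NorEV and 9.39 to 16.3% in HypEV.

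**Figure D2:**
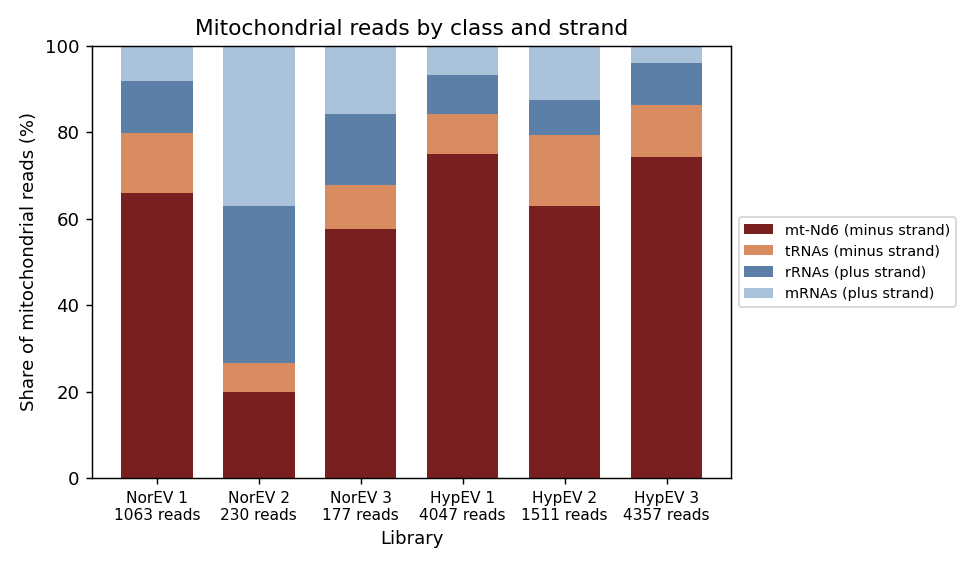
Shares of the mitochondrial reads of each library by class and strand, in percent; each bar is 1 library, with its number of mitochondrial reads under it. mt-Nd6 is the largest part of every bar except that of NorEV 2, where the rRNAs (36.5%) and the plus-strand mRNAs (36.96%) are larger.

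Over all 37 genes, mitochondrial reads were a small part of the libraries. They made up 0.0973% (0.0916 to 0.103), 0.0163% (0.0143 to 0.0185) and 0.0118% (0.0102 to 0.0137) of the reads on genes in NorEV 1, 2 and 3, against 0.189% (0.183 to 0.195), 0.105% (0.0994 to 0.110) and 0.330% (0.320 to 0.340) in HypEV 1, 2 and 3. The means were 0.0418% ± 0.0481 and 0.208% ± 0.114 (SD, n = 3). The groups did not overlap, yet the intervals of NorEV 1 and HypEV 2 did. Without mt-Nd6 the remaining 36 genes had 0.0332%, 0.0130% and 0.00502% in NorEV against 0.0473%, 0.0387% and 0.0845% in HypEV. With totals that leave out the Gm23935 family, the shares of all 37 were 0.102%, 0.0164% and 0.0119% in NorEV against 0.375%, 0.107% and 0.437% in HypEV. A higher share through more vesicles with mitochondrial RNA and one through more such RNA per vesicle cannot be told apart in these libraries.

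Libraries with more Gm23935 reads tended to have more mitochondrial reads. NorEV 2 and NorEV 3 were the lowest of the 6 in both, NorEV 1 and HypEV 2 came next in both, and HypEV 1 and HypEV 3 were the highest in both, with HypEV 1 first in Gm23935 and HypEV 3 first in mitochondrial reads. The part of the Gm23935 reads, or of what sets these libraries apart, in the mitochondrial values was not tested. Among the 3 libraries with the fewest Gm23935 reads, chosen after seeing the data, HypEV 2 had more mitochondrial reads by share than NorEV 2 and NorEV 3, with 0.0905 points between their means.

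**Figure D3:**
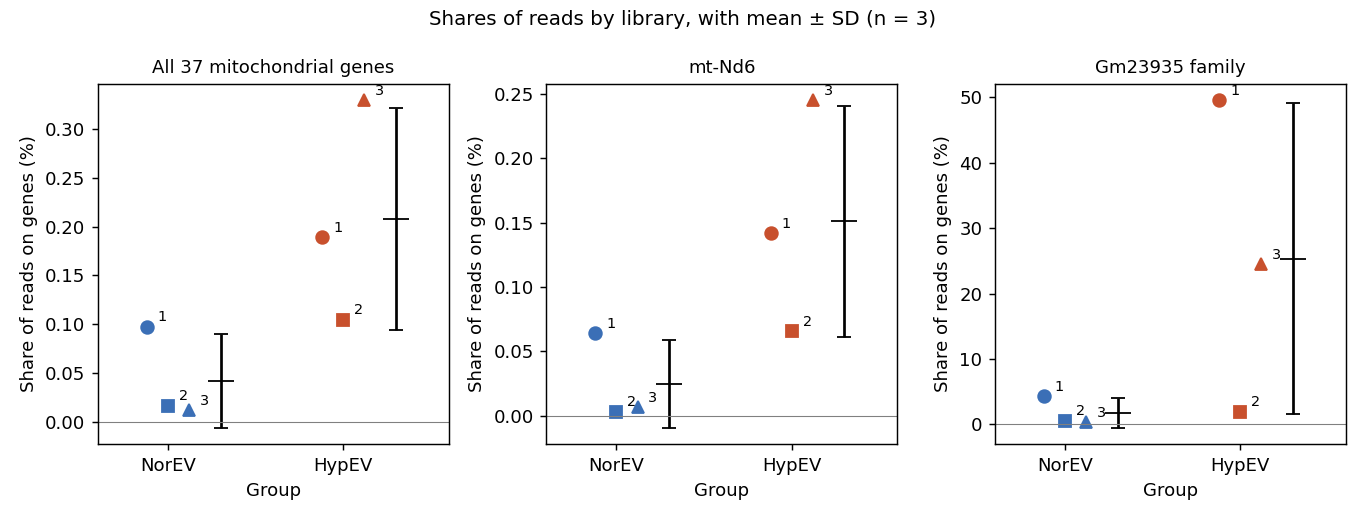
Share of the reads on genes, in percent, taken by the 37 mitochondrial genes (left), by mt-Nd6 (middle) and by the Gm23935 family (right); points are libraries, numbered, and black bars give the mean ± SD of 3. NorEV 1 lies next to HypEV 2 in all 3 panels, at 0.0973% and 0.105% of reads for the 37 genes.

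The comparison of HypEV with NorEV was fitted over the 44125 genes that averaged 1 FPKM or more, on the scale log2(FPKM + 1), which understates the change of low genes. Of the 37 members 15 entered it, and 22 were left out for low values: the 20 listed at 0 throughout, mt-Co2 and mt-Atp6. None of the 15 passed the threshold of an adjusted p of 0.05 (limma, Benjamini-Hochberg), where 0.0159% of all genes tested passed in either direction and 0.00227% as higher. At an unadjusted p under 0.05, 6 of the 15 were higher in HypEV and 0 lower, against 0.635% of all genes higher and 6.13% lower. All 15 had a log2 fold change above 0, as had 25.1% of all genes tested. In 5 of the 15 (mt-Tq, mt-Nd4, mt-Nd5, mt-Nd6 and mt-Te) all HypEV libraries were above all of NorEV, against 1.1% of all genes, and in 0 all were below, against 10.8%. The median log2 fold change was 1.67 for the members and -0.44 for all genes tested. These counts describe members that share a genome and its transcripts, so that they are not separate observations, and members passed the filter on low values in part through the group in which they were high.

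The 5 largest fold changes were those of minus-strand genes. mt-Nd6 had a log2 fold change of 3.54 ± 1.22 (SE; adjusted p = 0.705, limma), mt-Tq 2.88 ± 0.99 (adjusted p = 0.705) and mt-Tp 3.08 ± 1.20 (adjusted p = 0.720). For mt-Te (4.92 ± 1.44, adjusted p = 0.617) and mt-Ta (5.47 ± 1.71, adjusted p = 0.645) libraries at 0 set the size of the fitted value, which depends on the added 1 FPKM. The fitted values of the other two minus-strand genes, mt-Ty (2.03) and mt-Ts1 (1.57), rest on 6 and 7 reads in all and are no measure of a fold, and mt-Ty passed the filter only through HypEV 3. With them, the 7 tested minus-strand genes had a median of 3.08, and the 8 tested plus-strand genes one of 1.17. mt-Nd5 had the smallest p-value of the plus strand, with 1.67 ± 0.63 (unadjusted p = 0.0287, adjusted p = 0.720). mt-Rnr2 had 1.84 ± 0.94, mt-Rnr1 1.13 ± 0.51, mt-Nd4 1.53 ± 0.71, mt-Cytb 1.22 ± 0.66, mt-Nd1 1.11 ± 0.58, mt-Co1 1.08 ± 0.76 and mt-Nd2 0.60 ± 0.64 (SE). mt-Nd4 has a library at 0 and came to 2.80 with 0.1 FPKM added in place of 1. With 1 library left out, the values of 5 plus-strand genes moved by more than 1.5 times: mt-Rnr2 came to 0.86, mt-Nd5 to 1.03, mt-Cytb to 0.67 and mt-Nd2 to 0.24 without NorEV 3, and mt-Co1 to 0.48 without HypEV 1. The opposite shifts were up to 1.97 for mt-Cytb and 2.20 for mt-Nd5 without NorEV 1, and 0.99 for mt-Nd2 without NorEV 2. They were up to 2.58 for mt-Rnr2 without HypEV 2 and 1.86 for mt-Co1 without HypEV 3. Minus-strand values moved as well. Without NorEV 2, mt-Nd6 came to 2.65, mt-Te to 3.07, mt-Tp to 2.115, mt-Tq to 2.49 and mt-Ta to 4.27. Without NorEV 1 these were 4.79, 6.44, 4.55, 3.82 and 7.86. The difference between the strands has no test here, since both sets of values come from the same 6 libraries and few transcripts.

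A test on the recovered reads gave another answer for some members. limma-voom, which weights each gene by its depth, called 6 of the 15 higher (mt-Rnr2, mt-Tq, mt-Ta, mt-Nd6, mt-Te and mt-Tp), against 0.0401% of all genes. With totals that leave out the Gm23935 family it called 4 (mt-Tq, mt-Nd5, mt-Nd6 and mt-Tp), against 0.0472%. For mt-Nd6 the adjusted p was 7.96e-25 and 1.17e-05 in these 2 fits, with log2 fold changes of 3.64 ± 0.33 and 4.02 ± 0.54 (SE). These errors borrow from genes of like depth. Within NorEV, mt-Nd6 ranged from 62.7 to 1234 FPKM. In the fits on FPKM (other pseudocounts, filters, scalings and weights, a replicate block, or 1 library left out) its adjusted p was 0.0990 to 0.969 (limma), so that the call rests on the test chosen.

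**Figure D4:**
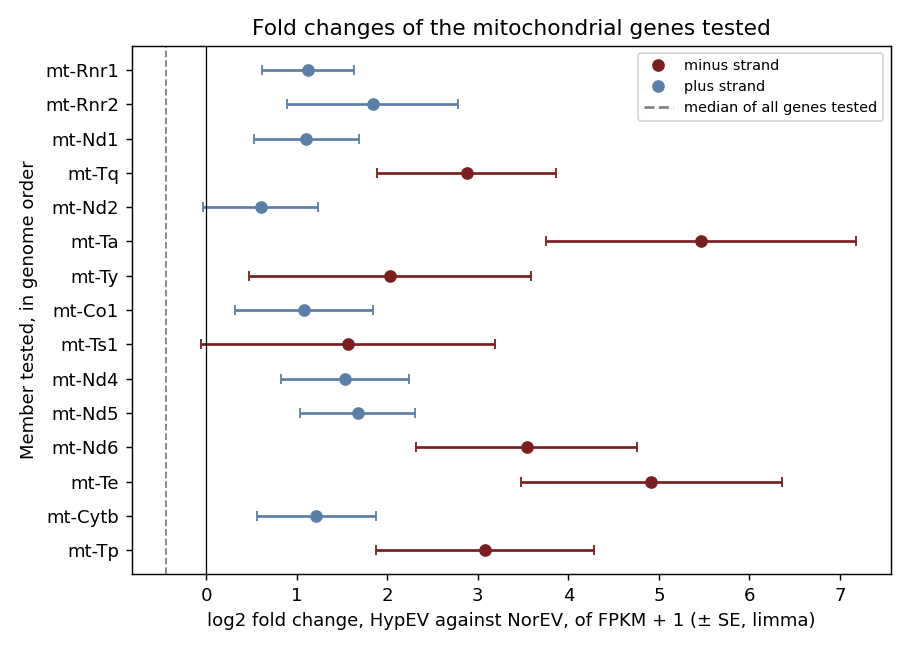
log2 fold change of HypEV against NorEV on the log2(FPKM + 1) scale, with its SE from limma, for the 15 mitochondrial genes tested, in genome order; red points are minus-strand genes, blue points plus-strand genes, and the dashed line is the median of all genes tested (-0.44). All 15 points lie to the right of 0, from 0.60 (mt-Nd2) to 5.47 (mt-Ta).

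The respiratory chain also needs subunits encoded in the nucleus. Of 76 nuclear subunits of complexes I to V, 75 were tested. 28 were higher and 47 lower in HypEV, none of which passed (limma, nor limma-voom on reads), and their median log2 fold change was -0.22. At an unadjusted p under 0.05, 0 were higher and 3 lower, where 0.635% and 6.13% of all genes were; a log2 fold change above 0 was found for 25.1% of all genes. Their median level was 8.37, 9.21 and 9.63 FPKM in NorEV against 5.87, 10.8 and 7.96 in HypEV. mt-Cytb, at 12.03 ± 12.5 FPKM in NorEV and 21.5 ± 2.97 in HypEV, compared with medians of 7.09 ± 0.264 and 6.61 ± 3.38 for the 9 nuclear subunits of complex III. The 7 mitochondrial genes of complex I had medians of 3.13 ± 2.12 and 5.66 ± 2.29 FPKM, and the 36 nuclear ones 7.36 ± 1.13 and 7.31 ± 2.30 (SD over 3 libraries). Nuclear subunits of complex IV had 15.3 ± 3.70 and 9.64 ± 1.77 FPKM and of complex V 12.6 ± 2.09 and 9.04 ± 2.64, where the mitochondrial genes mt-Co2, mt-Co3, mt-Atp6 and mt-Atp8 were at or near 0. The remaining mitochondrial gene of complex IV, mt-Co1, had 7.39 ± 4.22 and 19.9 ± 15.6 FPKM, below the nuclear median of its complex in NorEV and above it in HypEV by these means. As given above, mt-Nd3, mt-Nd4l, mt-Co2, mt-Co3, mt-Atp6 and parts of mt-Nd4 and mt-Co1 have near-identical nuclear copies. Reads that fit both copies cannot be assigned, so the levels of these genes, and the complex I median that includes them, are uncertain. Complex II, which has no mitochondrial gene, had 18.0 ± 6.55 and 11.5 ± 5.60 FPKM over 4 subunits.

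Within each complex the nuclear genes of smallest p did not pass. In complex I they were Ndufa2 (log2 fold change 1.36 ± 0.61 SE) and Ndufs8 (-1.19 ± 0.54), and in complex II Sdhd (-1.35 ± 0.62) and Sdhb (-0.79 ± 0.66). In complex III they were Uqcrc1 (-0.58 ± 0.47 SE) and Uqcr10 (-1.07 ± 0.97), and in complex IV Cox6a1 (-1.68 ± 0.52) and Ndufa4 (-1.13 ± 0.46). In complex V, the ATP synthase, they were Atp5d (-1.51 ± 0.66 SE) and Atp5g2 (0.97 ± 0.51). The adjusted p-values were 0.637 (Cox6a1) to 0.799 (limma).

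Nuclear genes that copy, transcribe and process mitochondrial nucleic acids were also near the median of all genes. The list covers among others Polrmt, the mitochondrial RNA polymerase, Tfam, which packages mitochondrial DNA, Elac2 and Trmt10c, which cut tRNAs out of the transcripts, and Supv3l1 and Pnpt1, of the RNA-degrading complex. Of its 36 genes 35 were matched and tested, 7 of them higher and 28 lower, where 25.1% of all genes tested were higher. None passed (limma, nor limma-voom on reads). At an unadjusted p under 0.05 (limma), 0 were higher and 1 lower, where 0.635% and 6.13% of all genes were. Their median log2 fold change was -0.42. The smallest p-values were those of Exog, a mitochondrial nuclease (-1.22 ± 0.49 SE), and Mterf1b, a homologue of a mitochondrial transcription terminator (0.94 ± 0.45), both with an adjusted p of 0.720.

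**Figure D5:**
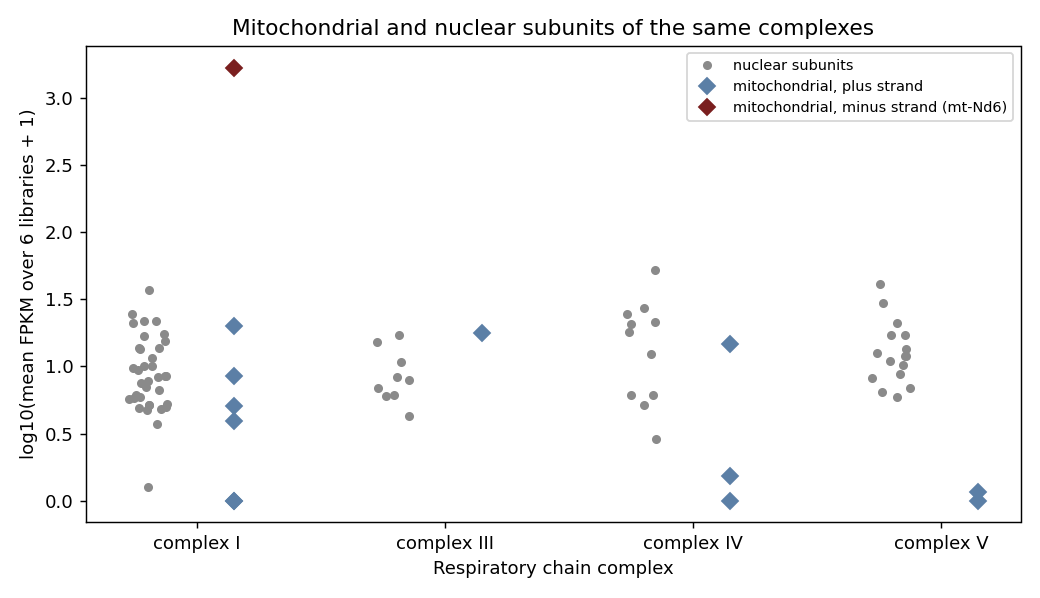
Levels of respiratory chain genes as log10(mean FPKM over the 6 libraries + 1), by complex; grey points are nuclear subunits, blue diamonds plus-strand and the red diamond minus-strand mitochondrial genes. mt-Nd6 (1692 FPKM) stands above every nuclear subunit drawn, whereas the highest blue diamond is mt-Nd5 (18.9 FPKM), and mt-Cytb (16.8 FPKM) lies just above the highest nuclear subunit of complex III, Uqcrh (16.2 FPKM).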

How the data were processed

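Each of 6 libraries (3 NorEV, 3 HypEV) came as a table of FPKM values that the authors deposited; the tables' names mention HTSeq, and the aligner, the build and the annotation are not given in the sources used here. Total RNA was extracted with Trizol and made into libraries with an Epibiotek long-RNA kit, per the labels' protocols. Of the identifiers, 53274 were found in GENCODE M21 and 105 were not. With the length of the longest transcript, 96.0% of the values above 0 were whole reads within 0.01 reads. Where no read was counted, the limit is 3 reads, which is 0.000140 to 0.000275% of a library.

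HypEV and NorEV were compared with limma 3.58.1 under R 4.3.3, two-sided and without covariates, its variance trend switched on, on log2(FPKM + 1). Alternatives were other pseudocounts, filters, scalings and weights, a replicate block, leaving out each library, and limma-voom on recovered reads. Wilson intervals have a confidence level of 95%. Near-identical transcripts were found with blastn 2.17.0 (over 90% alike, at least 30 bases). Other steps used Python 3.11.15 with numpy 2.4.6, pandas 2.3.3 and scipy 1.17.1, and figures matplotlib 3.10.9. The limma steps were run on simulated reads as a check of the code. That simulation used the same setting for the spread of every gene and left out the Gm23935 family. It therefore does not show how the tests perform on these libraries.

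The members and the 13 lists of nuclear and marker genes were chosen with earlier results of these data known. Every mitochondrial gene is accounted for, those with a read by value; of the nuclear lists the 2 genes of smallest p are named where none passed.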

Additional observations from a re-analysis of the deposited data

How the results depend on the processing

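The 15 tested members had a log2 fold change above 0 in every alternative that tested them; mt-Co2 and mt-Atp6, which enter without a filter, did not. The number of all genes past the threshold was 7, and 0 with a pseudocount of 0.1, no filter, median centring, no variance trend or a replicate block. It was 75 with library weights, 231 with limma-voom and 60 with limma-voom without the Gm23935 family, and 0 to 71 with 1 library left out (71 without HypEV 2). Members past the threshold were 0, but 6 and 4 in the limma-voom fits and 0 to 1 with 1 library left out (mt-Ta without NorEV 1, adjusted p = 0.0472, limma). The members' median minus that of all genes was 2.11, and 3.24 with a pseudocount of 0.1, 3.74 with library weights, 1.39 (without NorEV 3) to 2.73 (without NorEV 1) with 1 library left out. It was 1.90 in the 3 libraries poorest in Gm23935, a choice made after seeing the data that leaves HypEV 2 alone against NorEV 2 and 3 and so is a value with no test of stability; 14 of 15 members were higher there, and mt-Co2, which passes the filter in these libraries, was lower. The median of all genes was -0.44, and 0.01 after median centring. The difference in mitochondrial share was 0.166 points, 0.263 with totals that leave out the Gm23935 family, 0.0397 without mt-Nd6 and 0.105 without HypEV 3. That in rRNA share was -12.6 points, and -5.13 without NorEV 2. Same-numbered libraries of the groups deviated from their group means with correlations of 0.04, 0.10 and -0.06. Differently numbered ones had -0.145 to 0.106, so whether the numbers pair the libraries cannot be told from these values. With and without the block, 6 members had an unadjusted p under 0.05 (limma). The cause of these shifts was not tested. NorEV 2 and 3 held 230 and 177 mitochondrial reads, which limits the precision of their shares.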
